A study of Homo sapiens with 6 samples.

Results

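The genes described here are 38 named genes of the oxidative stress defence that the transcription factor NRF2 controls or that shares its substrates, together with the glutathione, thioredoxin and iron genes that bear on ferroptosis, in Huh7, a cell line from a human liver cancer. They were taken from the deposited table by gene symbol, which gave 39 rows for 38 symbols among 58735 rows in all, because SOD2 stands there under a pair of identifiers. RNA-seq gene counts came from 3 libraries of cells carrying a short hairpin RNA against ITGB5, the integrin beta 5 subunit (shITGB5), and 3 libraries of cells carrying a control hairpin (shcontrol). All cells were grown in serum-supplemented RPMI-1640 medium, and no drug treatment is named in the labels. The hairpin sequences, the number of hairpins, and whether the cells were pools or clones are not stated in the labels. Separate cultures are not named as the origin of the 3 libraries in each group. The p-values therefore reflect only how far these libraries scatter, and that scatter may be technical. In bulk RNA, fewer cells of a kind and less RNA per cell cannot be told apart.

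NRF2, the product of NFE2L2, is held at a low level by KEAP1, an adaptor that hands it to a ubiquitin ligase. When reactive molecules modify KEAP1, NRF2 accumulates, pairs with small MAF proteins and binds antioxidant response elements near genes that make glutathione, regenerate thioredoxin and clear quinones. Ferroptosis is a form of cell death driven by iron-dependent peroxidation of membrane lipids, which glutathione peroxidase 4 counters by using glutathione. Liver cells are rich in this defence, and liver tumours often carry an active NRF2 pathway.

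Library totals ran from 16563911 to 18011313 counts for shITGB5 and from 15777922 to 17476580 for shcontrol. The mitochondrial share of counts was 3.24% to 3.29% in shITGB5 and 3.46% to 3.54% in shcontrol libraries. Between 25856 and 26143 genes had a count above 0 in the shITGB5 libraries, against 26795 to 26976 in the shcontrol libraries. The labelled line carried its liver markers: 10 hepatocyte markers summed to between 5876 and 6026 CPM (counts scaled to a common library size) in the shITGB5 libraries, against 5202 to 5339 in the shcontrol libraries, so this sum was higher in every shITGB5 library. ALB made up most of that sum (mean 3253 CPM in shITGB5 and 2878 in shcontrol), and SERPINA1 and HNF4A overlapped between the groups. The 2 markers of hepatoma and fetal liver summed to 1759 to 1807 CPM in the shITGB5 libraries, against 1543 to 1586 CPM in the shcontrol libraries, with no overlap. Of these, AFP averaged 1038 CPM in shITGB5 and 846 in shcontrol, without overlap. GPC3 averaged 739 and 723 CPM, and its libraries overlapped. The part of these shifts in the results on the genes below was not tested. Fibroblast markers summed to 154 to 165 CPM in shITGB5 and 147 to 156 CPM in shcontrol libraries. The 4 endothelial markers summed to 4.12 to 5.45 CPM in shITGB5 and 3.55 to 5.63 CPM in shcontrol libraries, nearly all of it PECAM1 (62 to 93 counts a library). The 5 blood and immune markers summed to 6.53 to 6.87 CPM in shITGB5 and 6.42 to 7.52 CPM in shcontrol libraries, nearly all of it LYZ (102 to 124 counts). The others of both lists (CDH5, VWF, KDR, PTPRC, CD3E, CD68 and HBB) lay at 0 to 5 counts in every library, and KDR was at 0 in all 6. ITGB5 stood at 173, 181 and 174 CPM with its hairpin, against 205, 214 and 217 CPM with the control hairpin, with no overlap. It averaged 176.1 CPM ± 4.30 with its hairpin, against 211.8 CPM ± 6.35 with the control hairpin (SD, n = 3 each), and fell by 0.27 on the log2 scale (edgeR, Benjamini-Hochberg adjusted p = 2.85e-11; exact two-sided permutation p = 0.1, the smallest that 3 libraries against 3 allow).

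Of the 38 symbols, all were measured well enough to be tested in 1 row each, whereas the spare SOD2 row held 0 to 4 counts in every library and was left out. At these totals a count of 0 still allows 0.167 to 0.190 CPM, for counting error only. The shITGB5 libraries had lower RNA levels for 12 of the 38 genes and higher levels for 4, while 22 did not pass (edgeR quasi-likelihood test, Benjamini-Hochberg adjusted p under 0.05 over 16577 genes). Over all genes tested, 6.96% fell and 8.54% rose, so the share of these genes that fell, 31.6%, was above that background and the share that rose, 10.5%, was near it. That background was not matched for level, which bears on how small a change can pass. Among the 38 genes, falls as small as 5.00% (FTH1) passed. Without the low-count filter, 7 of the 38 fell and 4 rose, while over all 34847 genes of that fit 874 fell and 1280 rose. The 38 genes were also chosen with earlier results of these data known. The part of level and of this choice in the excess was not tested. The groups did not overlap with shITGB5 lower for 12 of the 38 genes, against 13.8% of all genes tested, and with shITGB5 higher for 5, against 14.7%. The median log2 change was -0.04 over the 38 genes and 0 over all genes tested. Together the genes took 1.13% to 1.14% of the counts in the shITGB5 libraries, against 1.18% to 1.19% in the shcontrol libraries, and FTL alone made up 0.352% to 0.361%, against 0.381% to 0.388%.

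The levels spanned a wide range. In FPKM, which is the level per length of gene, FTL led with a mean of 4074 in shITGB5 and 4381 in shcontrol cells. PRDX1 followed with 448 and 462 FPKM, then FTH1 with 382 and 402, TXN with 215 and 209, and PRDX5 with 211 and 194. At the low end stood AKR1B10, with 1.67 FPKM in shITGB5 and 1.23 in shcontrol cells, and AKR1C3, with 0.328 and 0.440. Counts for these rarest genes were few, between 16 and 54 a library, and their changes had wide intervals.

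**Figure D1:**
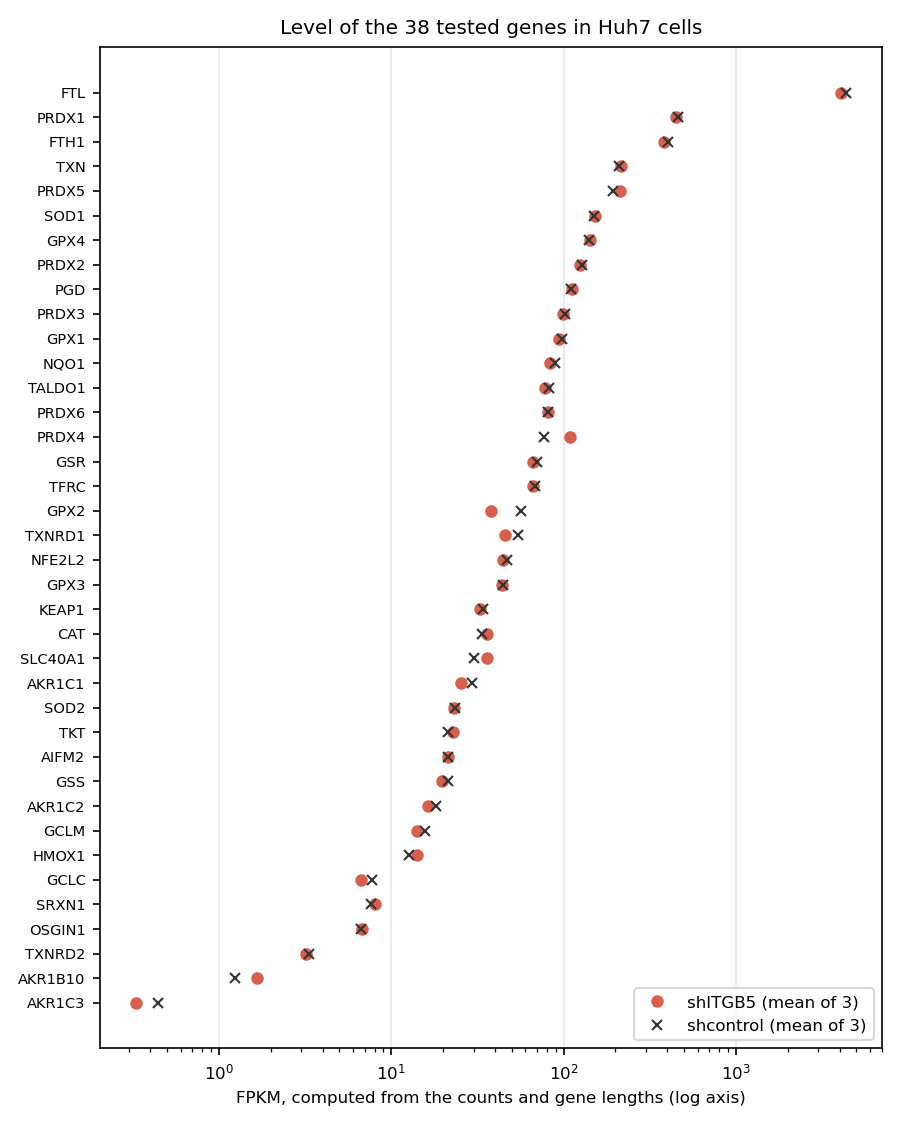
Mean level per length of gene, in FPKM on a log axis, of the 38 tested genes in shITGB5 cells (circles) and shcontrol cells (crosses), ordered by the shcontrol level. Most pairs of symbols nearly coincide, while PRDX4 lies higher in shITGB5 (108 against 77.1 FPKM) and GPX2 lower (37.96 against 56.4 FPKM).

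For the regulators themselves no change passed the test. NFE2L2 stood at 275, 259 and 264 CPM in the shITGB5 libraries, against 269.98, 280.03 and 289 CPM in the shcontrol libraries, so the groups overlapped. Its log2 change was -0.07, with a 95% interval of -0.13 to -0.01 (edgeR adjusted p = 0.0891). The call turned with single libraries: it passed without shITGB5 replicate 1 (adjusted p = 0.0261) and without shcontrol replicate 1 (0.0346). AGPS overlaps NFE2L2 on the other strand, with counts equal to 67.8% of those of NFE2L2, and did not pass either (log2 change -0.01). KEAP1 stood at 119.88, 128 and 119.41 CPM in the shITGB5 libraries, against 126, 129 and 128 CPM in the shcontrol libraries. Its log2 change was -0.06, with an interval of -0.13 to 0.01 (edgeR adjusted p = 0.320), and the groups overlapped.

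Promoter windows from RefSeq (GRCh38.p14), which run from 250 bases before to 50 after a gene's start, were found for 30 of the 38 genes and searched on both strands for TGACNNNGC, the core of the antioxidant response element. Of these genes, 6 (20%) had a match, against 19.4% of tested genes that have a window, so the share was at background. Among the genes that fell, 3 of 9 with a window had one, among those that rose 0 of 4, and among those that did not pass 3 of 17. A match from each start of the genes that fell, and 1 each from KEAP1 and AIFM2, are printed to show what an element of this kind looks like. Each line runs 5′ to 3′ along the gene's strand with 1 match in capitals, so a match on the opposite strand reads as its reverse complement.
GPX2, chr14:64942833-64942892, minus strand: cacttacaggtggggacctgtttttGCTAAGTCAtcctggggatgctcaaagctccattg
GCLM, chr1:93909430-93909489, minus strand: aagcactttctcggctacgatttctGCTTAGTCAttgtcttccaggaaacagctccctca
TXNRD1, upstream start, chr12:104215655-104215714, plus strand: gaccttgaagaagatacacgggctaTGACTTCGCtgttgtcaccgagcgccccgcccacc
TXNRD1, downstream start, chr12:104286905-104286964, plus strand: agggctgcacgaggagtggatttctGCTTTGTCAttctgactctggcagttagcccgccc
KEAP1, chr19:10502768-10502827, minus strand: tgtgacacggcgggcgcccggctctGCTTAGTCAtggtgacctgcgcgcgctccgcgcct
AIFM2, chr10:70132813-70132872, minus strand: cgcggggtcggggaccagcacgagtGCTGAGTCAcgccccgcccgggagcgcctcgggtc
GPX2, GCLM and KEAP1 thus hold closely similar elements (TGACTTAGC in GPX2 and TGACTAAGC in both GCLM and KEAP1) 122, 34 and 31 bases before their starts, counted to the first base of the match. The KEAP1 line also holds a second match, TGACACGGC, left in lower case, which lies 54 bases before the start. The AIFM2 match, TGACTCAGC, also contains the AP-1 element TGACTCA. A match is a description of the letters and does not show that NRF2 binds there, and a window without one says nothing about elements farther away.

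All 4 genes that make and recycle glutathione fell, by 5.94% to 13.9%. GCLC, the catalytic subunit of glutamate-cysteine ligase, which limits the rate of glutathione synthesis, stood at 62.2, 55.2 and 55.1 CPM in the shITGB5 libraries, against 67.9, 65.0 and 67.6 CPM in the shcontrol libraries. Every shITGB5 library lay below every shcontrol library. GCLC fell by 13.9% (log2 change -0.22, SE 0.051, 95% interval -0.32 to -0.12; edgeR adjusted p = 0.000763). GCLM, the modifier subunit of the same enzyme, stood at 76.3, 76.1 and 75.9 CPM in the shITGB5 libraries, against 84.7, 84.9 and 85.7 CPM in the shcontrol libraries. These values were tight within each group and did not overlap. GCLM fell by 10.6% (log2 change -0.16, SE 0.044, interval -0.25 to -0.07; edgeR adjusted p = 0.00502).

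GSS, glutathione synthetase, which completes the tripeptide, stood at 116, 129.49 and 121 CPM in the shITGB5 libraries, against 134, 129.01 and 132 CPM in the shcontrol libraries, and the groups overlapped through shITGB5 replicate 2. It fell by 7.39% (log2 change -0.11, SE 0.038; edgeR adjusted p = 0.0309). GSR, glutathione reductase, which returns oxidized glutathione to its reduced form, stood at 252, 238 and 256 CPM in the shITGB5 libraries, against 262, 265 and 267 CPM in the shcontrol libraries, with no overlap. It fell by 5.94% (log2 change -0.09, SE 0.030; edgeR adjusted p = 0.0270). Both calls were lost when single libraries were left out. GSS missed the threshold without shITGB5 replicate 1, shITGB5 replicate 3, shcontrol replicate 1 or shcontrol replicate 3 (adjusted p = 0.263, 0.109, 0.126 and 0.0776), and GSR without shITGB5 replicate 2, shcontrol replicate 2 or shcontrol replicate 3 (adjusted p = 0.232, 0.0658 and 0.0861).

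Of the 4 glutathione peroxidases, GPX2 fell and the others did not pass. GPX2 (ENSG00000176153, chromosome 14, 64939152 to 64942905, minus strand on GRCh38), a cytosolic selenoprotein best known from the gut lining, stood at 56.6, 53.2 and 60.9 CPM in the shITGB5 libraries, against 83.0, 88.6 and 82.2 CPM in the shcontrol libraries. The highest shITGB5 library lay well below the lowest shcontrol library. GPX2 fell by 32.7% (95% interval -37.1% to -28.0%; log2 change -0.57, SE 0.049; edgeR adjusted p = 1.06e-18), the largest fall among the 38 genes that passed. CHURC1 overlaps GPX2 on the other strand with counts equal to 24.8% of those of GPX2, and its own change, -0.18 on the log2 scale, did not pass (edgeR adjusted p = 0.217). GPX4, the enzyme that reduces phospholipid hydroperoxides and holds off ferroptosis, averaged 289 CPM ± 10.9 in shITGB5 and 284 CPM ± 17.1 in shcontrol cells (SD, n = 3 each), a log2 change of 0.02 with an interval of -0.04 to 0.08. GPX1, the general cytosolic form that GENCODE 29 annotates as a polymorphic pseudogene, had a log2 change of -0.06 (interval -0.13 to 0.01), and GPX3, the secreted plasma form, of -0.02 (interval -0.09 to 0.05).

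**Figure D2:**
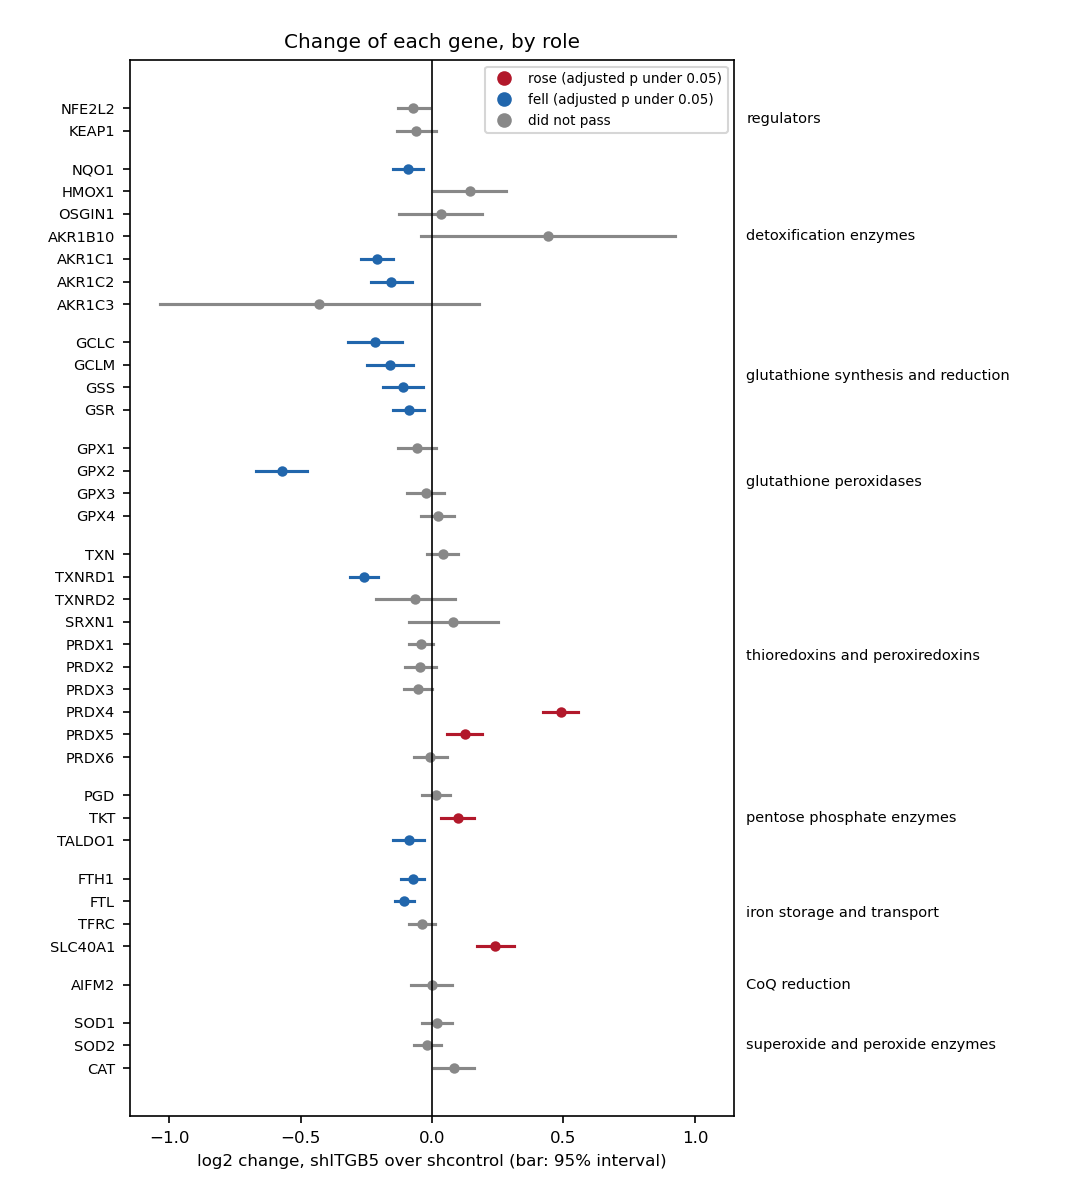
Log2 change of each of the 38 tested genes, shITGB5 over shcontrol, with its 95% interval, grouped by role; red genes rose, blue genes fell (edgeR adjusted p under 0.05) and grey genes did not pass. GPX2 (-0.57) and PRDX4 (0.49) stand farthest from 0 among the genes that passed, and the 4 genes of glutathione synthesis and reduction all lie below 0.

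The thioredoxin system moved in both directions: the cytosolic reductase fell and a pair of peroxiredoxins rose. TXNRD1 (ENSG00000198431, chromosome 12, 104215779 to 104350305, plus strand on GRCh38), the selenoprotein that reduces thioredoxin with NADPH, stood at 304, 304 and 312 CPM in the shITGB5 libraries, against 369.57, 374 and 355 CPM in the shcontrol libraries, with no overlap. It fell by 16.4% (interval -19.5% to -13.2%; log2 change -0.26, SE 0.027; edgeR adjusted p = 8.92e-14). The processed pseudogene RPL18AP3 lies within TXNRD1 on the same strand with counts equal to 17.5% of those of TXNRD1, and did not pass (log2 change 0.06, edgeR adjusted p = 0.581). TXNRD2, the mitochondrial reductase, averaged 26.7 CPM ± 1.74 in shITGB5 and 27.9 CPM ± 2.23 in shcontrol cells, a log2 change of -0.06 with an interval of -0.21 to 0.09. The TXNRD2 value is uncertain, since its counts may include reads of other transcripts. TXN, the thioredoxin that TXNRD1 and its relatives reduce, had a log2 change of 0.04 (interval -0.02 to 0.10), and SRXN1, the sulfiredoxin that repairs overoxidized peroxiredoxins, of 0.08 (interval -0.09 to 0.25).

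PRDX4 (ENSG00000123131, chromosome X, 23664262 to 23686399, plus strand on GRCh38), the peroxiredoxin of the endoplasmic reticulum, had the largest rise among the genes that passed. It stood at 201, 207 and 210.1 CPM in the shITGB5 libraries, against 151, 144 and 145 CPM in the shcontrol libraries. The groups lay far apart relative to their spread. PRDX4 rose by 40.4% (interval 34.1% to 46.9%; log2 change 0.49, SE 0.033; edgeR adjusted p = 2.63e-25). PRDX5, found in mitochondria, peroxisomes and cytosol, stood at 184, 195 and 186 CPM in the shITGB5 libraries, against 175, 168 and 176 CPM in the shcontrol libraries, with no overlap. It rose by 8.98% (log2 change 0.12, SE 0.033; edgeR adjusted p = 0.00326), and missed the threshold without shcontrol replicate 2 (adjusted p = 0.0567). The other peroxiredoxins did not pass: the log2 change was -0.04 for PRDX1, -0.04 for PRDX2, -0.05 for the mitochondrial PRDX3 and -0.01 for PRDX6, each with an interval within -0.11 and 0.06. PRDX3 lay lower in every shITGB5 library (334 to 339 CPM, against 346 to 355 CPM in the shcontrol libraries; edgeR adjusted p = 0.181).

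Among the detoxification enzymes, NQO1, AKR1C1 and AKR1C2 fell, whereas HMOX1, OSGIN1, AKR1B10 and AKR1C3 did not pass. NQO1, a quinone reductase often used as a readout of NRF2 activity, stood at 276, 267 and 274 CPM in the shITGB5 libraries, against 298, 285 and 287 CPM in the shcontrol libraries. The groups did not overlap but lay close together. NQO1 fell by 6.17% (log2 change -0.09, SE 0.029; edgeR adjusted p = 0.0152), and missed the threshold without shITGB5 replicate 2 (adjusted p = 0.0587) and without shcontrol replicate 1 (0.145). AKR1C1, an aldo-keto reductase of steroids and aldehydes, stood at 232, 225 and 208 CPM in the shITGB5 libraries, against 262, 257 and 249.95 CPM in the shcontrol libraries, with no overlap, and fell by 13.6% (log2 change -0.21, SE 0.031; edgeR adjusted p = 3.78e-08). Its close relative AKR1C2 stood at 106, 103 and 107 CPM in the shITGB5 libraries, against 121, 118 and 113 CPM in the shcontrol libraries, with no overlap, and fell by 10.2% (log2 change -0.16, SE 0.039; edgeR adjusted p = 0.00185). The sequences of both genes are so alike that reads could be shared between them, so the AKR1C values are uncertain one by one. HMOX1, the heme oxygenase that releases iron from heme, stood at 33.1, 34.1 and 34.2 CPM in the shITGB5 libraries, against 29.1, 31.6 and 31.1 CPM in the shcontrol libraries, higher in every shITGB5 library yet not past the threshold (log2 change 0.14, interval 0.01 to 0.28; edgeR adjusted p = 0.156). AKR1B10, a reductase of retinal and other aldehydes, also lay higher in every shITGB5 library, at 2.78 to 3.07 CPM against 1.49 to 2.68 CPM in the shcontrol libraries, without passing (log2 change 0.44, interval -0.04 to 0.93). The changes of OSGIN1, a stress-induced growth inhibitor (log2 change 0.03), and AKR1C3 (-0.43, interval -1.04 to 0.18) did not pass either.

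Iron storage genes fell and the iron exporter rose. FTL, the ferritin light chain, stood at 3529.8, 3623 and 3578 CPM in the shITGB5 libraries, against 3883, 3817 and 3839 CPM in the shcontrol libraries, with no overlap, and fell by 7.02% (interval -9.29% to -4.68%; log2 change -0.10, SE 0.018; edgeR adjusted p = 1.98e-06). FTH1, the ferritin heavy chain that oxidizes iron for storage, stood at 758, 792 and 774 CPM in the shITGB5 libraries, against 801, 816 and 829 CPM in the shcontrol libraries, with no overlap. It fell by 5.00% (log2 change -0.07, SE 0.023; edgeR adjusted p = 0.0134), and missed the threshold without shITGB5 replicate 1 (adjusted p = 0.107) and without shcontrol replicate 3 (0.0920). Pseudogenes named for FTH1, 25 in the table, held counts equal to 1.05% of those of FTH1, and the 16 named for FTL held 0.0338%. SLC40A1 (ENSG00000138449, chromosome 2, 189560579 to 189583758, minus strand on GRCh38), ferroportin, the exporter of cellular iron, stood at 157, 156 and 152 CPM in the shITGB5 libraries, against 125, 135 and 133 CPM in the shcontrol libraries. All shITGB5 libraries were higher, and SLC40A1 rose by 18.2% (interval 12.5% to 24.1%; log2 change 0.24, SE 0.036; edgeR adjusted p = 4.06e-08). TFRC, the transferrin receptor that brings iron in, averaged 526 CPM ± 14.2 in shITGB5 and 541 CPM ± 4.91 in shcontrol cells (SD, n = 3 each), a log2 change of -0.04 with an interval of -0.09 to 0.01.

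The pentose phosphate enzymes, which supply NADPH to the reductases above or rearrange its sugars, changed little. TKT, transketolase, stood at 206, 227 and 221 CPM in the shITGB5 libraries, against 199, 200.5 and 212 CPM in the shcontrol libraries, with overlap, and rose by 6.99% (log2 change 0.10, SE 0.032; edgeR adjusted p = 0.0246). TALDO1, transaldolase, stood at 232, 239 and 229 CPM in the shITGB5 libraries, against 244, 249 and 252 CPM in the shcontrol libraries, with no overlap, and fell by 5.97% (log2 change -0.09, SE 0.030; edgeR adjusted p = 0.0269). Both calls depended on single libraries. TKT missed the threshold without shITGB5 replicate 2 or 3 or shcontrol replicate 1 or 2 (adjusted p = 0.206, 0.107, 0.175 and 0.116), and TALDO1 without shITGB5 replicate 1 or 3 or shcontrol replicate 2 or 3 (adjusted p = 0.0718, 0.147, 0.0745 and 0.108). PGD, the second NADPH-producing step, had a log2 change of 0.02 (interval -0.04 to 0.07).

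The remaining defence enzymes did not pass. AIFM2, known as FSP1, which reduces coenzyme Q and so protects lipids independently of GPX4, averaged 109.8 CPM ± 3.87 in shITGB5 and 109.8 CPM ± 1.605 in shcontrol cells (SD, n = 3 each), a log2 change of -0.001 with an interval of -0.08 to 0.08. H2AFY2 overlaps AIFM2 on the other strand with 37.3% of its counts, and rose (log2 change 0.24, edgeR adjusted p = 0.00207). SOD1, the cytosolic superoxide dismutase, had a log2 change of 0.02 (interval -0.04 to 0.08), and SOD2, the mitochondrial one, of -0.02 (interval -0.07 to 0.03), with WTAP overlapping SOD2 on the other strand at 26.5% of its counts (WTAP log2 change -0.09, not past the threshold). CAT, catalase, which breaks down hydrogen peroxide in peroxisomes, averaged 129 CPM ± 2.45 in shITGB5 and 121 CPM ± 6.77 in shcontrol cells, a log2 change of 0.08 with an interval of 0.01 to 0.16 (edgeR adjusted p = 0.132).

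**Figure D3:**
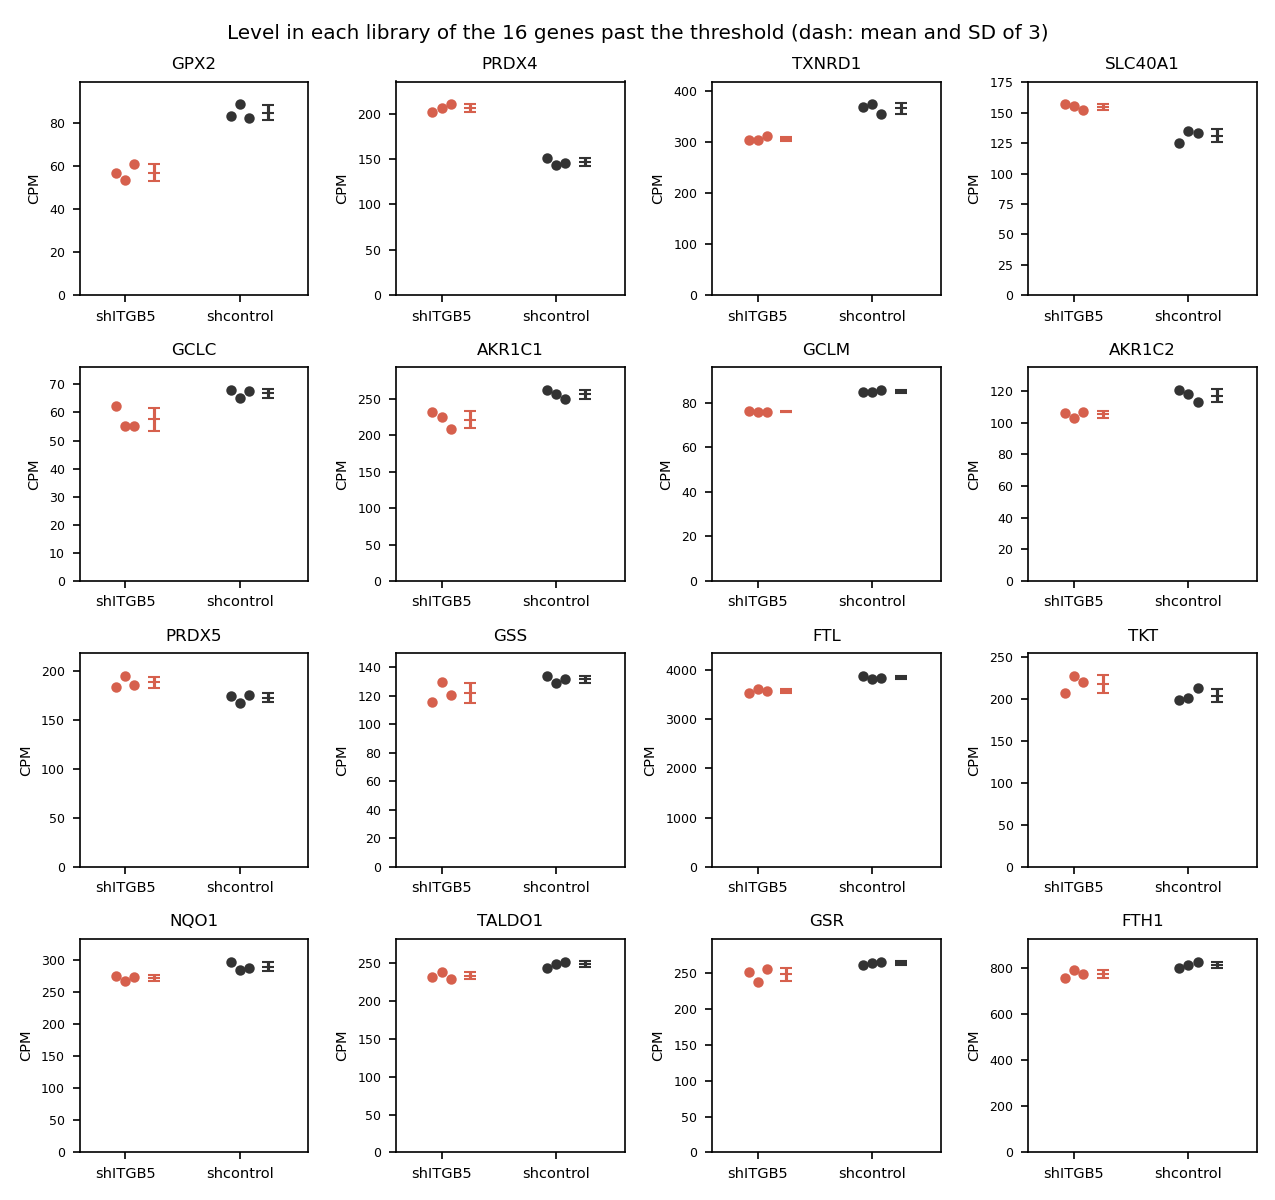
Level in each library (points, CPM, axis from 0) of the 16 genes past the threshold, with the mean and SD of the 3 libraries of each group beside them, ordered by the size of the log2 change. GPX2, PRDX4, TXNRD1 and SLC40A1 show wide gaps between shITGB5 and shcontrol, while the libraries of GSS and TKT overlap.

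Of the 16 genes that passed, 9 kept their call and direction in each of the 13 alternative fits: GPX2, TXNRD1, GCLC, GCLM, AKR1C1, AKR1C2 and FTL among those that fell, and PRDX4 and SLC40A1 among those that rose. The other 7 lost it in at least 1 fit.

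A pair of overlapping 7-base words, AGACCAA and GACCAAA, had been found in an earlier look at these same libraries to be common in the 3′ untranslated regions (UTRs) of genes that fell. Their presence in the genes described here is therefore not independent evidence and is given as a description. In the principal transcript of each gene in GENCODE 29, 9 of the 38 genes held either word, or 23.7%, against 15.8% of the 13229 tested genes with a 3′ UTR. Of these 9 genes, 6 fell, 0 rose and 3 did not pass. Of the 29 without the word, 6 fell, 4 rose and 19 did not pass. Length of the 3′ UTR differed between these sets. Its median was 1437 bases for the genes that fell, 584.5 for those that rose and 437.5 for those that did not pass. Over the 38 genes it was 506 bases, against 1082 over all tested genes with a 3′ UTR. The part of length in these counts was not tested. The median log2 change was -0.16 with the word and -0.02 without it, set beside -0.04 and 0.01 over all tested genes with a 3′ UTR. Among all tested genes with a 3′ UTR, 17.7% of those with the word and 6.25% of those without it fell. The shares that rose were 6.8% with the word and 10.9% without it.

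A site of each of the 6 genes that fell, and those of GPX1 and SRXN1, which did not pass, are printed to compare them. Each line gives 30 bases of the 3′ UTR on GRCh38, 5′ to 3′ along the transcript, with the matched letters in capitals.
GPX2, chr14:64939165-64939194, minus strand: tctgctagaagAGACCAAtaaagggcaggt
GCLC, chr6:53498655-53498684, minus strand: gtataatatgaAGACCAAAtgatagaactg
GCLM, chr1:93886251-93886280, minus strand: tgcatccagtgAGACCAAggtagaaagttt
FTL, chr19:48966839-48966868, plus strand: aacaagccttgGACCAAAtggaaataaagc
AKR1C1, chr10:4979198-4979227, plus strand: tggagggccctAGACCAAttttttggatta
AKR1C2, chr10:4988512-4988541, minus strand: tggagggccctAGACCAAttttttggatta
GPX1, chr3:49357205-49357234, minus strand: cagtctctgccAGACCAAggcgagtttccc
SRXN1, chr20:647918-647947, minus strand: catggctgaatAGACCAAtcgtgttccatc
GPX2 and FTL carry the word in short 3′ UTRs of 330 and 143 bases. GCLC holds both words joined, as AGACCAAA. The AKR1C1 and AKR1C2 stretches are identical over their 30 bases, and each gene has a further copy of a word that also stands in the other. GPX1 and SRXN1 hold AGACCAA and did not pass, and so did SOD2, whose 3′ UTR of 13436 bases holds 2 copies. TXNRD1, GSS, GSR, NQO1, TALDO1 and FTH1 fell and hold neither word. A different pair of words, TCGGAGA and CGGAGAA, taken from the same earlier look at genes that rose, stood in TFRC and in 0 of the 4 genes described here that rose. Over all tested genes with a 3′ UTR, 3.35% held a word of this different pair. The part of these words in the changes was not tested.

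**Figure D4:**
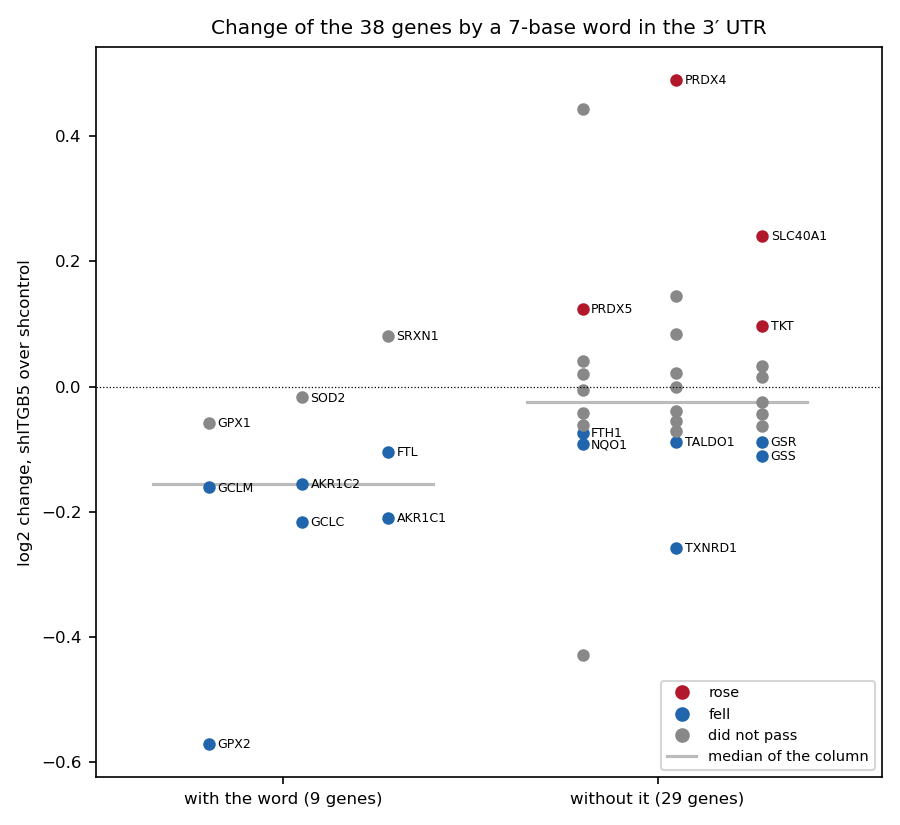
Log2 change, shITGB5 over shcontrol, of the 38 genes, split by whether the 3′ UTR holds AGACCAA or GACCAAA (9 genes, left) or not (29 genes, right), with the median of each column as a grey line; colours mark genes that rose, fell or did not pass. The column with the word has its median at -0.16 and holds no gene that rose, where 6.8% of all tested genes with the word did. The column without the word holds PRDX4 at the top and TXNRD1 as its lowest gene past the threshold.

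Beyond the 38 genes, 118 further genes of the same pathways, in 7 lists, were looked at for comparison. Of the 112 that could be tested, 15 rose (13.4%), 5 fell (4.46%) and 92 did not pass, with a median log2 change of 0.02, beside 8.54% that rose and 6.96% that fell over all genes tested. The difference from the 38 genes was not tested. Of 10 partners and degradation factors of NRF2, 3 rose and 7 did not pass. MAFF, a small MAF partner of NRF2, averaged 30.1 CPM ± 0.621 in shITGB5 and 23.5 CPM ± 2.01 in shcontrol cells (log2 change 0.36), and PLA2G6 overlaps it on the other strand with 30.2% of its counts. RBX1, a subunit of the ligase that degrades NRF2, rose by 17.8% (log2 change 0.24), and NFE2L1, the related factor NRF1, by 16.1% (log2 change 0.22) (edgeR adjusted p = 0.000165 for RBX1 and 1.495e-09 for NFE2L1).

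Of 16 tested genes of NRF2-linked detoxification and NADPH supply, 2 fell and 14 did not pass. UGDH, which makes UDP-glucuronic acid, averaged 177 CPM ± 8.92 in shITGB5 and 226 CPM ± 3.05 in shcontrol cells (log2 change -0.36; edgeR adjusted p = 2.20e-17). IDH1, the cytosolic NADP-dependent isocitrate dehydrogenase, fell by 12.7% (log2 change -0.20; edgeR adjusted p = 1.49e-11), and its 3′ UTR holds GACCAAA. Of 25 tested glutathione transferases, glutaredoxins and turnover enzymes, 3 rose, 1 fell and 21 did not pass. MGST3, a microsomal glutathione transferase, rose by 23.2% (log2 change 0.30), and its relative MGST2 by 11.1% (log2 change 0.15). GSTO1, an omega-class transferase, rose by 8.69% (log2 change 0.12), whereas GSTP1, the pi-class enzyme, averaged 671 CPM ± 7.22 in shITGB5 and 709 CPM ± 8.75 in shcontrol cells and fell by 5.39% (log2 change -0.08; edgeR adjusted p = 0.00758). MAML3 overlaps MGST2 on the other strand with 42.7% of its counts.

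Of 16 other thioredoxin system genes, SESN2, a stress-induced sestrin, rose by 18.9% (log2 change 0.25; edgeR adjusted p = 5.23e-05) and 15 did not pass. Of 18 tested genes for selenoproteins and selenocysteine insertion, 3 rose, 1 fell and 14 did not pass. SEPHS2, which makes the selenium donor for all selenoproteins, averaged 445 CPM ± 6.51 in shITGB5 and 401 CPM ± 5.49 in shcontrol cells and rose by 11.02% (log2 change 0.15; edgeR adjusted p = 1.48e-06). SELENOP, the secreted selenium carrier of the liver, rose by 14.7% (log2 change 0.20), and SELENOS, a membrane protein of the endoplasmic reticulum, by 17.1% (log2 change 0.23). SELENOF, also of the endoplasmic reticulum, fell by 12.2% (log2 change -0.19; edgeR adjusted p = 6.39e-05), and its 3′ UTR holds AGACCAAA.

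Of 15 iron uptake, storage and regulation genes, TF, the plasma iron carrier transferrin, rose by 5.06% (log2 change 0.07; edgeR adjusted p = 0.0136). NCOA4, which delivers ferritin to the lysosome, fell by 5.198% (log2 change -0.08; edgeR adjusted p = 0.0493), and 13 did not pass. Of 12 tested genes in a list that mixes lipid peroxidation with ferroptosis defence, 4 rose and 8 did not pass. These counts are therefore not of defence genes alone. FADS1, a desaturase that makes polyunsaturated fatty acids, rose by 15.3% (log2 change 0.21), and LPCAT3, which places them in phospholipids, by 16.2% (log2 change 0.22). ACSL3, which activates fatty acids for lipid synthesis, rose by 13.6% (log2 change 0.18), and SLC3A2, the heavy chain of the cystine transporter, by 10.2% (log2 change 0.14). FADS2 overlaps FADS1 on the other strand with 146% of its counts and rose itself (log2 change 0.33). EMG1 and C1S overlap LPCAT3 on the other strand with 220% and 189% of its counts, so the LPCAT3 value is uncertain. The words AGACCAA or GACCAAA were not particular to genes that fell: the 3′ UTRs of MAFF, FADS1 and TF, which rose, hold them as well. These 3′ UTRs are 1633, 2786 and 18020 bases long. Of the 20 genes in these lists that passed, MGST2, GSTP1, NCOA4, TF and LPCAT3 lost their call in at least 1 alternative fit, with the highest adjusted p at 0.0876, 0.0630, 0.456, 0.111 and 0.236.

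**Figure D5:**
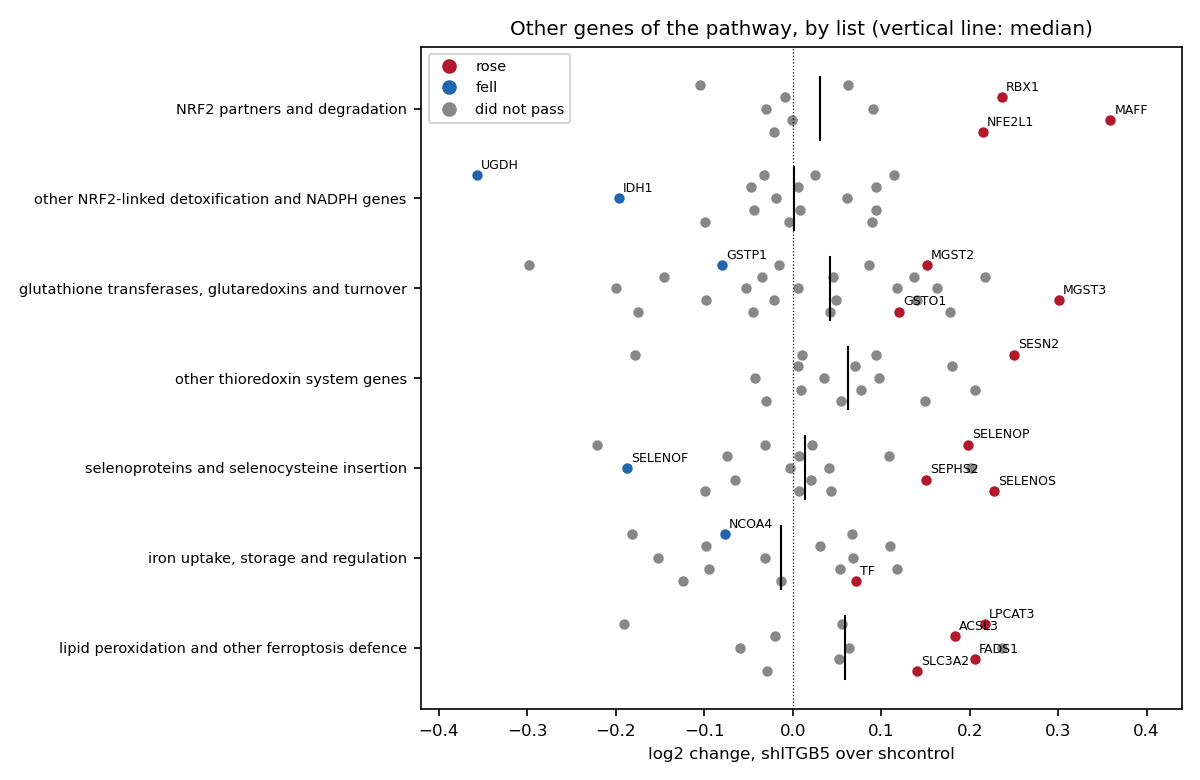
Log2 change, shITGB5 over shcontrol, of the 112 tested genes in 7 further lists of the pathway, with the median of each list as a vertical line; red genes rose, blue genes fell and grey genes did not pass (edgeR adjusted p under 0.05). MAFF (0.36) stands highest and UGDH (-0.36) lowest.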

How the data were processed

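RNA-seq libraries were made from total RNA of Huh7 cells and a strand-keeping kit, per the labels' protocols. The authors deposited 1 table of 58735 genes that is named for FPKM but holds raw counts: 100% of its values were whole, and the totals differed between libraries. How reads were aligned and counted, and whether strand was used, is not given in the sources used here, so reads of genes overlapping on opposite strands may not be told apart. Columns coded S were read as shITGB5 and those coded NC as shcontrol, which the labels leave unexplained. Chromosome, start and end equalled those of GENCODE 29 (GRCh38) for 58690 of the 58735 genes.

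Here, genes were kept by filterByExpr, scaled by TMM and tested with edgeR 4.0.16 (R 4.3.3, quasi-likelihood with robust fitting, two-sided, no covariate), Benjamini-Hochberg adjusted over 16577 genes at 0.05. CPM values use the TMM sizes, and FPKM values were computed from them and the table's gene lengths. The steps were tested on simulated data. Alternatives used limma 3.58.1 (log2 CPM, prior count 2), DESeq2 1.42.0, RLE factors, library totals, no filter, the replicate number as a block and each library left out. The fit without robust estimation was chosen after seeing the data. The genes and lists were chosen with earlier results of these data known. All 38 genes were accounted for. In the other lists, up to 4 genes past the threshold with the largest change were named, and overlapping genes were named from 20% of a gene's counts; RPL18AP3 and the further genes noted for a word were chosen after their values were seen.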

Additional observations from a re-analysis of the deposited data

How the results depend on the processing

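The 16 calls (4 up, 12 down) among the 38 genes were 16 with RLE factors, library totals, limma, the replicate block and non-robust fitting, 14 with DESeq2 and 11 with no low-count filter, which adjusts over 34847 genes. Leaving out 1 library gave 12 to 14 calls among the 38 genes, 2043 to 2238 over all genes (2569 in the fit of all 6) and 16 to 20 among the further pathway genes (20). Without the filter NQO1, GSS, GSR, TALDO1 and FTH1 were lost, and with DESeq2 GSS and TKT. DESeq2 called 1904 genes in all, the replicate block 2499 and the fit with no low-count filter 2154. Deviations of libraries with one number were nearly unrelated (correlation 0.0034, -0.0544 and -0.0155), so no strong link between them was seen. A weak shared batch could be hidden by counting noise in these values. The block ended no call among the 38 genes, and that of NCOA4 among the others (adjusted p = 0.0751). ITGB5 kept its direction and call in each fit, with -0.292 to -0.250 when 1 library was left out. Of genes that passed no test, some changed sign. With 1 library left out, OSGIN1 ranged from -0.0019 to 0.0721, GPX4 from -0.0159 to 0.0701, PRDX6 from -0.0154 to 0.0027, PGD from -0.002 to 0.0303, AIFM2 from -0.0198 to 0.0278 and SOD1 from -0.0088 to 0.0446. Without the filter PRDX6 was at 0.001 and AIFM2 at 0.0061. No gene that passed changed direction in these fits. Depth limits AKR1B10 and AKR1C3, at 16 to 54 counts a library.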
